A study of Mus musculus and Rattus norvegicus with 30 samples.

Results

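The 10 genes described here encode ligands, receptors and a secreted antagonist of tumour necrosis factor (TNF) and interleukin-1 signalling. They are Tnf, Tnfrsf1a, Tnfrsf1b, Tnfrsf12a, Il1a, Il1b, Il1r1, Il1rap, Il1rn and Il18. They were picked by name from the symbol column of the deposited tables, with earlier results of these data known, so the choice was not blind. They are 10 of 54315 features in the mouse count table and 10 of 39281 in the rat count table. The tissue was the dorsal root ganglion (DRG), where the cell bodies of sensory neurons lie beside the spinal cord, and it was taken after peripheral nerve injury or sham surgery.

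The mouse libraries came from lumbar DRG of BALB/c and B10.D2 mice of both sexes, with ganglia of 1 animal per library, 28 days after spared nerve injury (SNI) or sham surgery. In SNI, the common peroneal and sural nerves are cut and the tibial nerve is left intact, so the ganglia hold injured and uninjured neurons. BALB/c gave 6 sham and 4 SNI libraries and B10.D2 gave 5 of each, made from ribosome-depleted RNA. The rat libraries came from lumbar DRG of male Wistar rats, 21 days after spinal nerve transection (SNT) or sham surgery, in which the spinal nerve is ligated and cut close to the ganglion, with 4 libraries per group and 3 pooled animals per library, made from polyadenylated RNA. The labels name no transgene and no drug for any group, and they give no age. Of the mouse samples in the labels, 2 were not analysed here, number 59 (B10.D2 sham) and number 66 (BALB/c SNI). Mouse and rat therefore differ in injury, day, sex, pooling and RNA fraction. By the authors' account they also differ in the lumbar level of the ganglia and in the sequencer. The species were not tested against each other.

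TNF and interleukin-1 are cytokines made mainly by macrophages and other immune cells, and in part by glia. TNF signals through TNF receptor 1 (Tnfrsf1a), found on most cells, and TNF receptor 2 (Tnfrsf1b), more restricted to immune, endothelial and glial cells. Both lead to activation of the transcription factor NF-kB. Interleukin-1 alpha and beta (Il1a, Il1b) bind the receptor Il1r1, which needs the accessory protein Il1rap to signal, and the antagonist encoded by Il1rn occupies Il1r1 without signalling. In sensory ganglia, these cytokines are known for sensitising nociceptive neurons after nerve damage.

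Library totals ran from 29989963 to 41881331 counts in mouse and from 11954612 to 17887909 counts in rat. Levels are given as CPM, which is counts scaled to a common library total with the TMM factor of edgeR. Markers of sensory neurons summed to 7865 to 9990 CPM in mouse and 3797 to 8280 CPM in rat, where 4 of 9 listed neuron markers (Tubb3, Uchl1, Rbfox3 and Nefh) were listed at 0 in the 8 libraries. Markers of nerve injury were called higher after injury for 12 of 12 tested in BALB/c, 11 of 12 in B10.D2 and 8 of 9 in rat. On the leading principal component of the rat libraries, sham 4 (−7.23) and SNT 1 (1.27) had intermediate scores, where sham 1 to 3 scored −52.9 to −39.6 and SNT 2 to 4 scored 34 to 54.7. In mouse, BALB/c sham 50 and 55 and B10.D2 SNI 89 lay between the sham and SNI libraries on the component that separates them. Values without these libraries are given beside the results that rest on them. Because these libraries were picked for lying between the groups, leaving them out tends to widen the difference. Values without them, here and below, are therefore not support for a call.

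For 4 of the genes that changed after injury, the 250 bases before the RefSeq start on GRCm38.p6 are printed, with motifs in capitals. Il1r1 has 2 RefSeq starts, and the window of the first is printed. Which start was used in these ganglia was not measured. On both strands, 5 motifs were searched: a TATA box (TATAAA), a GC box (GGGCGG), the AP-1 motif (TGANTCA), the core of the cAMP response element (TGACG) and the NF-kB consensus. Tnfrsf12a and Tnfrsf1b are shown as receptors with a call in BALB/c, Il1r1 as the gene called in both strains and in rat, and Il1b as the cytokine called in B10.D2.
Tnfrsf12a, chr17:23677450-23677699, minus strand: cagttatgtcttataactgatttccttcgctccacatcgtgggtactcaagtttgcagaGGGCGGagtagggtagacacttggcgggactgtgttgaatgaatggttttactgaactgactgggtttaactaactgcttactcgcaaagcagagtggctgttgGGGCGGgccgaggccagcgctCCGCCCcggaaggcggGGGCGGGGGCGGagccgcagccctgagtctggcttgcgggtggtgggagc
Tnfrsf1b, chr4:145246871-145247120, minus strand: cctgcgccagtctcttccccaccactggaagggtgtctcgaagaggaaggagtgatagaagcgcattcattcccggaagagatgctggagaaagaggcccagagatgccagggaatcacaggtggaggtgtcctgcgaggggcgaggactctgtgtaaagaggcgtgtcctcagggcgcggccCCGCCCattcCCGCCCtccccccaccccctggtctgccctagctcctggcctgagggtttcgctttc
Il1r1, chr1:40224830-40225079, plus strand: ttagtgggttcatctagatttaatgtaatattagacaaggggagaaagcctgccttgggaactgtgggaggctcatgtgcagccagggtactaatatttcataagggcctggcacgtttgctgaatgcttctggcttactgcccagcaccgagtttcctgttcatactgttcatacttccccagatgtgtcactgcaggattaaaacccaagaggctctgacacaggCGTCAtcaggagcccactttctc
Il1b, chr2:129371140-129371389, minus strand: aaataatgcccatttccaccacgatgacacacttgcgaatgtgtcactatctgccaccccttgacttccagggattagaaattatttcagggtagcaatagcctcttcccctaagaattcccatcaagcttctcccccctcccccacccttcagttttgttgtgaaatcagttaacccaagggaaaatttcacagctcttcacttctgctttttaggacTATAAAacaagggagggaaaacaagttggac
The GENCODE start of Tnfrsf12a lies inside its window. The Tnfrsf12a window held 5 GC boxes and no TATA box, and the Tnfrsf1b window held 2 GC boxes and no TATA box. The Il1b window held a TATA box that begins 31 bases before the start, and the Il1r1 window held 1 cAMP response element core, 23 bases before the start. Among 32851 RefSeq promoter windows of the same length, 32.7% held a GC box, 12.4% a TATA box, 17.8% the cAMP core, 6.75% the AP-1 motif and 3.9% the NF-kB consensus.

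The 10 genes had 13 such windows. TATA boxes were also found before Tnf (29 bases before the start), Il1a (32 bases) and Il18 (175 bases). AP-1 motifs lay before Il1a (12 bases) and before 1 of 3 Il1rn starts (141 bases). Il1rap had 4 GC boxes, the Tnf window had 1, and the window of the other Il1r1 start had 1 GC box and 1 match to the NF-kB consensus. None of the 5 motifs was found before Tnfrsf1a or before the other Il1rn starts. These matches are letters in a window, not measured binding.

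In sham ganglia, Tnf, Il1a and Il1b lay below the receptors Tnfrsf1a, Tnfrsf1b, Il1r1 and Il1rap, while the ligand Il18 was among the highest of the 10 genes. On the scale of CPM per kilobase of exon, which allows genes to be compared, Tnfrsf1a had the highest BALB/c sham level of the 10 genes, 5.82 ± 0.388 (SD, n = 6). Il18 followed with 4.25 ± 0.441, then Tnfrsf12a with 2.94 ± 0.472, Il1r1 with 2.36 ± 0.230 and Tnfrsf1b with 2.03 ± 0.255. The ranges of Tnfrsf12a and Il1r1, and of Il1r1 and Tnfrsf1b, overlapped. Il1rap came next with 1.57 ± 0.104 and Il1b with 0.542 ± 0.243. Tnf (0.148 ± 0.0481), Il1rn (0.105 ± 0.0664) and Il1a (0.0613 ± 0.0595) were lowest, and neighbours among these 3 overlapped.

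The B10.D2 sham order was the same, from 6.88 ± 0.446 CPM per kilobase for Tnfrsf1a (n = 5) to 0.0139 ± 0.0143 for Il1a, with Tnfrsf1a and Il18 (5.10 ± 1.12) now overlapping. After SNI, Tnfrsf12a reached 6.72 ± 0.537 in BALB/c (n = 4), which overlapped the Tnfrsf1a level of 6.74 ± 0.617, and 4.56 ± 0.766 in B10.D2 (n = 5), which overlapped Il18 (5.38 ± 0.460). With the longest transcript in place of all exons as length, Il1rap moved from rank 6 to rank 4 in the 4 mouse groups. With that length Tnfrsf12a ranked 2 and Il18 ranked 3 in BALB/c sham, in place of 3 and 2, and Tnfrsf12a ranked above Tnfrsf1a in both SNI groups. No rat gene lengths were used here, so rat levels are compared only within a gene.

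**Figure D1:**
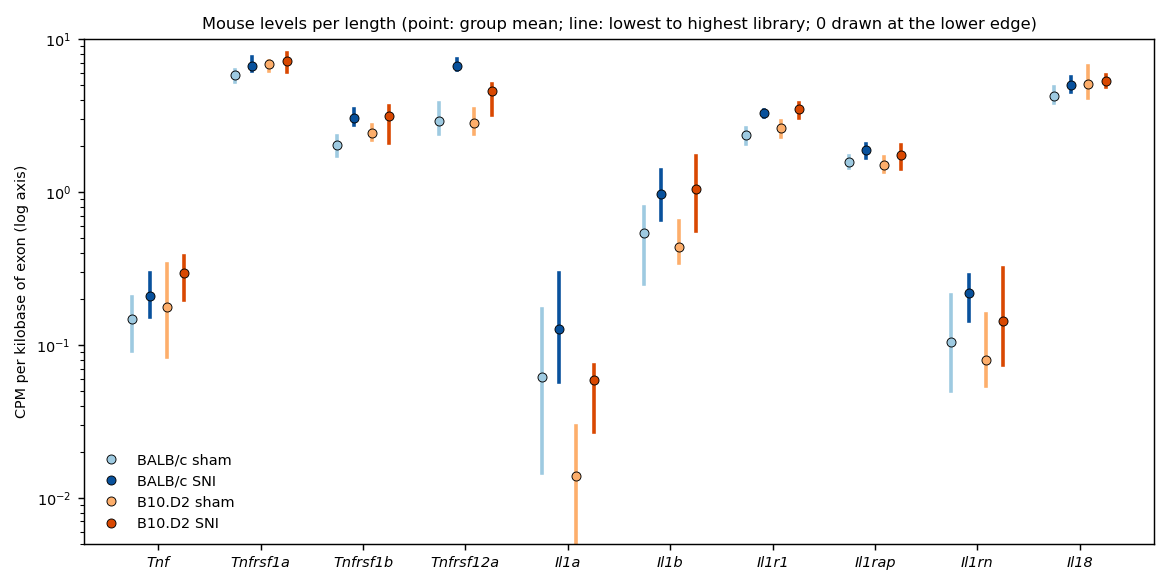
Mean level of each of the 10 genes in the 4 mouse groups, in CPM per kilobase of exon on a log axis, with lines from the lowest to the highest library. Receptors and Il18 lie above 1, and Tnf, Il1a and Il1rn lie below 0.5 in the 4 groups.

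After injury, transcripts of some receptors rose in each of the 3 comparisons. In BALB/c, Tnfrsf12a, Tnfrsf1b and Il1r1 were called higher (adjusted p under 0.05 over the 24685 features tested in mouse). In B10.D2, Tnfrsf12a, Il1r1 and Il1b were called higher. In rat, Tnfrsf1a, Tnfrsf1b, Il1r1 and Il1rn were called higher, and no member was called lower in any of the 3.

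These are 3 of 9 members tested in BALB/c, where 9.69% of all features were called and 4.82% were called higher. They are 3 of 9 in B10.D2, against 4.58% called and 2.1% called higher over all features, and 4 of 7 in rat, against 27.4% called and 12.3% called higher. In every BALB/c SNI library, 3 members exceeded every sham library (Tnfrsf12a, Tnfrsf1b and Il1r1), and 4.3% of all features did so. In B10.D2 1 member did so, Il1r1, against 2.41% of features, and in rat the 4 called members did so, against 12.2%. The median log2 fold change of the members tested was 0.49 in BALB/c, 0.42 in B10.D2 and 0.82 in rat, and over all features tested the medians were 0.00326, 0.00756 and 0.00265. An unadjusted p under 0.05 was found for 8 of 9 members in BALB/c, 6 of 9 in B10.D2 and 4 of 7 in rat. Over all features, the counts were 5739 of 24685, 4149 of 24685 and 5815 of 13690. In BALB/c, the uncalled Il1rn (1.05) and Il1b (0.85) had larger log2 fold changes than the called Tnfrsf1b (0.59) and Il1r1 (0.49). They held 10 to 103 counts a BALB/c library, against 248 to 877. The part of depth in the calls was not tested.

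Il1a had too few counts in mouse to be tested with the other features. In rat, Tnf, Tnfrsf12a and Il1rap were listed at 0 in the 8 libraries. This holds for many rat genes: of 15604 rat genes that share a symbol with a protein-coding gene of mouse, 6121 (39.2%) had no count in any library, and for Tnf, Tnfrsf12a and Il1rap the 20 nearest mouse protein-coding genes with a rat match were all listed at 0 in rat. The zeros of these 3 genes are therefore not read as a lack of expression. The rat LncRNAs that the authors assembled lay only on chromosomes 1 to 9, X and Y. Each rat marker and pathway list below also held genes listed at 0, so its counts cover part of the list. Bulk RNA cannot tell a change in the number of cells of a type from a change in RNA per cell, for these and all later results.

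**Figure D2:**
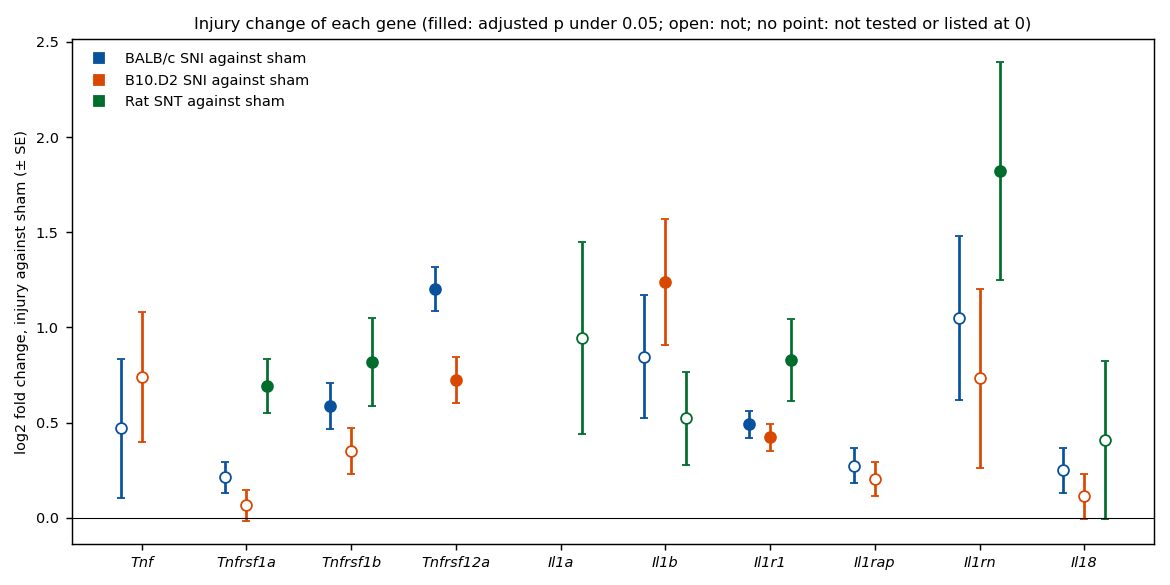
log2 fold change of injury against sham with its SE for each gene in BALB/c, B10.D2 and rat, filled where the adjusted p was under 0.05. The points lie above 0, and the filled points fall on receptors, on Il1b in B10.D2 and on Il1rn in rat.

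Tnf (chr17:35199381-35202007, mm10, minus strand) encodes the founding ligand of its family. Its BALB/c sham level ranged from 0.1503 to 0.338 CPM with a median of 0.247, and the 4 BALB/c SNI libraries held 0.486, 0.251, 0.259 and 0.369 CPM. The B10.D2 sham libraries held 0.555, 0.302, 0.136, 0.266 and 0.193 CPM, and the B10.D2 SNI libraries 0.614, 0.511, 0.630, 0.321 and 0.336 CPM. These are 5 to 26 counts a library, and the groups overlapped in both strains. The log2 fold change was 0.47 ± 0.365 (SE, adjusted p = 0.485) in BALB/c and 0.74 ± 0.342 (adjusted p = 0.273) in B10.D2, neither past the threshold. Fitted in each sex alone, the log2 fold change of Tnf was 1.04 in BALB/c males and −0.14 in BALB/c females, and −0.07 in B10.D2 males and 1.51 in B10.D2 females, with no adjusted p below 0.122.

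Il1a (chr2:129299610-129309972, minus strand), the membrane-bound and nuclear form of interleukin-1, was at the edge of detection in mouse. BALB/c sham libraries held 1 to 14 counts and BALB/c SNI libraries 18, 5, 7 and 4 counts. B10.D2 sham libraries held 2, 0, 2, 0 and 1 counts, and B10.D2 SNI libraries 4, 5, 6, 2 and 5. A library with 0 counts allows up to 3 counts, which is 0.0716 to 0.100 CPM in mouse. The mean was 0.0274 CPM in B10.D2 sham and 0.116 CPM in B10.D2 SNI, and an exact two-sided permutation test over libraries gave p = 0.0238, with 0.00794 the smallest p its 252 arrangements allow. In BALB/c the means were 0.121 and 0.251 CPM (exact permutation p = 0.281, smallest possible 0.00476). These 2 p-values are not adjusted.

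In rat, Il1a was measured at 0.497, 0.244, 0.499 and 1.63 CPM in sham and 1.201, 0.871, 1.89 and 1.64 CPM in SNT. Sham 4 was within the range of the SNT libraries and the other sham libraries were below them. Injury against sham gave a log2 fold change of 0.94 ± 0.504 (adjusted p = 0.180). Without sham 4 it was 1.78 (adjusted p = 0.0105), and without sham 4 and SNT 1 it was 1.84 (adjusted p = 0.00747).

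Il1b (chr2:129364570-129371139, minus strand), the secreted form of interleukin-1 that is cut from its precursor by caspase-1, was called in B10.D2. B10.D2 sham libraries held 1.23, 0.724, 0.652, 0.798 and 0.748 CPM, and B10.D2 SNI libraries 1.87, 1.51, 2.33, 1.07 and 3.28 CPM. SNI 89 was below sham 58, and the other SNI libraries were above the sham libraries. On the log2 scale the difference was 1.24 ± 0.332 (adjusted p = 0.0345), a 2.35-fold rise of the fitted level. The call was lost without any one of B10.D2 sham 60, 67, 77 or 88 or SNI 69, 78 or 90, with adjusted p from 0.0548 to 0.216, and the log2 fold change was 0.84 without SNI 90.

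In BALB/c, Il1b ranged from 0.476 to 1.52 CPM in sham, with a median of 1.06, and was 1.39, 2.13, 2.67 and 1.25 CPM in SNI. The 2 female SNI libraries were above the sham libraries and the 2 male ones were among them. The log2 fold change was 0.85 ± 0.324 (adjusted p = 0.111). Without BALB/c sham 50 it was 1.02 (adjusted p = 0.0496), and without the 3 mouse libraries that lay between the groups it was 1.2 (adjusted p = 0.0194). The strain by injury interaction of Il1b was 0.39 ± 0.465 (adjusted p = 1.0), with a 95% interval from −0.52 to 1.30.

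Rat Il1b was measured at 2.65, 2.87, 1.57 and 3.32 CPM in sham and 4.24, 3.00, 4.11 and 3.67 CPM in SNT. Only SNT 2 was among the sham libraries. The fitted log2 difference was 0.52 ± 0.244 (adjusted p = 0.130), and it was 0.60 (adjusted p = 0.0961) without sham 4 and SNT 1.

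The exons of Il1b overlap those of Il1bos on the opposite strand, and those of Il1a overlap Gm14023. The libraries marked the strand of the RNA. Il1bos held 0 to 10 counts a library and Gm14023 2 to 18. The mean level of Gm14023 was 0.312 CPM in B10.D2 sham, where Il1a was at 0.0274 CPM, and 0.177 CPM in BALB/c SNI, where Il1a was at 0.251 CPM. LncRNA4027, assembled by the authors on the strand opposite to Il1b, held 0 to 9 counts a library.

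Il18 (chr9:50554827-50581840, plus strand) encodes another cytokine released through caspase-1 and was the most abundant ligand per length. Its level ranged from 3.98 to 5.04 CPM in BALB/c sham (median 4.24), and was 5.87, 5.24, 4.67 and 5.13 CPM in BALB/c SNI. It was 6.05, 4.70, 4.27, 4.39 and 6.88 CPM in B10.D2 sham and 5.44, 5.998, 5.07, 6.07 and 5.12 CPM in B10.D2 SNI. The groups overlapped in both strains. The log2 ratio of the groups was 0.25 ± 0.118 (adjusted p = 0.210) in BALB/c and 0.11 ± 0.117 (adjusted p = 0.707) in B10.D2. Rat libraries held 4.81, 2.44, 3.06 and 10.8 CPM in sham and 6.89, 6.92, 9.01 and 5.18 CPM in SNT. The highest Il18 level of the 8 rat libraries was thus in sham 4. The rat log2 fold change was 0.41 ± 0.416 (adjusted p = 0.480), and it was 1.05 (adjusted p = 0.0182) without sham 4 and 1.06 (adjusted p = 0.0162) without sham 4 and SNT 1.

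Tnfrsf12a (chr17:23675445-23677468, minus strand), the receptor of the cytokine TWEAK, had the largest log2 fold change of the members called in BALB/c. BALB/c sham libraries ranged from 4.66 to 7.39 CPM (median 5.58), and BALB/c SNI libraries held 12.2, 13.2, 12.1 and 14.4 CPM. B10.D2 sham libraries held 6.72, 5.91, 5.27, 4.63 and 4.92 CPM, and B10.D2 SNI libraries 9.88, 6.23, 9.07, 9.31 and 9.61 CPM. The BALB/c groups were far apart, while B10.D2 SNI 76 was below sham 58 and the other B10.D2 SNI libraries were above the sham libraries. The log2 fold change was 1.2 ± 0.116 in BALB/c (2.29-fold, adjusted p = 7.83e-07) and 0.72 ± 0.119 in B10.D2 (1.65-fold, adjusted p = 0.00074). Over leaving out each library in turn, it ranged from 1.14 to 1.26 in BALB/c and from 0.66 to 0.81 in B10.D2, called each time.

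The injured ganglia of the strains differed in Tnfrsf12a. B10.D2 SNI libraries were all below BALB/c SNI libraries, with a log2 fold change of −0.54 ± 0.120 (adjusted p = 0.00212), while sham libraries overlapped (−0.07 ± 0.115, adjusted p = 0.739). It was the 1 member of 9 called between the strains after SNI, where 20.8% of all features were called. The test of the strain difference in the injury change itself gave −0.47 ± 0.167 (unadjusted p = 0.00987, adjusted p = 1.0), and it was not past the threshold. Without SNI 76, the library lowest among B10.D2 SNI, the strain difference after SNI was −0.46 (adjusted p = 0.00521) and the interaction −0.39. The strain and injury comparisons share libraries and are not independent. Nerve injury markers moved with this contrast: 3 of 12 were called lower in B10.D2 than in BALB/c after SNI and 0 of 12 had a positive log2 fold change, with a median of −0.54, and in the interaction 1 of 12 was called lower, with a median of −0.33. Their part in the Tnfrsf12a difference was not tested.

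The ligand of this receptor, Tnfsf12 (TWEAK), was measured at 3.66 ± 0.247 CPM in BALB/c sham (n = 6) and 4.73 ± 0.461 CPM in BALB/c SNI (n = 4), a log2 fold change of 0.37 ± 0.0905 (adjusted p = 0.0108). In B10.D2 it was 4.28 ± 0.520 and 4.60 ± 0.316 CPM (0.09 ± 0.0889, adjusted p = 0.692). Its interaction was −0.28 ± 0.127 (adjusted p = 1.0).

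Il1r1 (chr1:40225080-40317257, plus strand), the signalling receptor of interleukin-1, was called in both strains and in rat. BALB/c sham libraries ranged from 13.1 to 16.9 CPM (median 15.1), and BALB/c SNI libraries held 21.7, 22.0, 20.9 and 19.7 CPM. B10.D2 sham libraries held 18.5, 16.9, 14.6, 17.2 and 16.5 CPM, and B10.D2 SNI libraries 21.9, 19.5, 22.7, 22.3 and 24.4 CPM. The groups did not overlap in either strain. The difference in log2 level came to 0.49 ± 0.0721 in BALB/c (1.41-fold, adjusted p = 0.000112) and 0.42 ± 0.0717 in B10.D2 (1.34-fold, adjusted p = 0.001). The interaction was −0.07 ± 0.102, with a 95% interval from −0.27 to 0.13.

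Rat Il1r1 was 30.2, 34.0, 35.9 and 64.5 CPM in sham and 68.2, 74.0, 70.4 and 80.3 CPM in SNT. Sham 4 was near the SNT libraries, and the other sham libraries lay far below them. Fitted over all libraries, the log2 fold change was 0.83 ± 0.216 (1.78-fold, adjusted p = 0.0219), and it was 1.17 (adjusted p = 8.26e-05) without sham 4 and SNT 1. The call was lost without any one of sham 1, 2 or 3 or SNT 2 or 4, with adjusted p from 0.0509 to 0.0681.

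Il1rap (chr16:26581704-26730117, plus strand), the accessory chain, was measured at 16.3 to 19.6 CPM in BALB/c sham (median 17.7), and at 19.0, 21.2, 23.6 and 22.4 CPM in BALB/c SNI. It was 15.4, 15.5, 16.6, 18.8 and 19.4 CPM in B10.D2 sham and 19.0, 23.1, 22.2, 16.1 and 19.2 CPM in B10.D2 SNI. The log2 fold change was 0.27 ± 0.0912 (adjusted p = 0.0632) in BALB/c and 0.20 ± 0.0912 (adjusted p = 0.254) in B10.D2, and the groups overlapped. DESeq2 (adjusted p = 0.045) and BALB/c fitted alone (adjusted p = 0.0409) called it in BALB/c, as did leaving out BALB/c sham 51 (adjusted p = 0.0422) or B10.D2 SNI 89 (adjusted p = 0.0453). Il1rap exceeded Il1r1 in CPM by a median ratio of 1.23 in BALB/c sham and 1.05 in BALB/c SNI, and the median ratio was 1.09 in B10.D2 sham and 0.871 in B10.D2 SNI. These ratios are not corrected for length and were not tested.

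Tnfrsf1b (chr4:145213463-145246870, minus strand), TNF receptor 2, was called in BALB/c and in rat. BALB/c sham libraries ranged from 6.59 to 8.97 CPM (median 7.50), and BALB/c SNI libraries held 11.2, 10.5, 13.3 and 11.5 CPM, with no overlap. B10.D2 sham libraries held 10.5, 8.38, 8.88, 9.29 and 9.22 CPM, and B10.D2 SNI libraries 14.1, 12.2, 12.9, 7.97 and 12.8 CPM. B10.D2 SNI 89 was below the 5 B10.D2 sham libraries and the other SNI libraries were above them. Injury against sham gave a log2 fold change of 0.59 ± 0.122 in BALB/c (1.5-fold, adjusted p = 0.00325) and 0.35 ± 0.122 in B10.D2 (adjusted p = 0.119). Without SNI 89 the B10.D2 value was 0.48 (adjusted p = 0.00719). The interaction was −0.24 ± 0.173 (adjusted p = 1.0), so the strains were not shown to differ.

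Rat Tnfrsf1b was 18.0, 16.5, 12.4 and 29.3 CPM in sham and 30.9, 33.4, 40.02 and 29.95 CPM in SNT. Sham 4 was just below the lowest SNT library. On the log2 scale the difference was 0.82 ± 0.233 (1.76-fold, adjusted p = 0.0295), and it was 1.15 (adjusted p = 0.000718) without sham 4 and SNT 1. The call was lost without any one of sham 1, 2 or 3 or SNT 2, 3 or 4, with adjusted p from 0.0513 to 0.0728.

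Tnfrsf1a (chr6:125349362-125362484, plus strand), TNF receptor 1, which carries a death domain, was called after injury in rat and in neither mouse strain. Rat libraries held 61.9, 68.0, 66.3 and 86.8 CPM in sham and 93.1, 132, 120 and 113 CPM in SNT, with no overlap, and sham 4 and SNT 1 were the closest pair. The log2 fold change was 0.69 ± 0.140 (1.62-fold, adjusted p = 0.0123), and the call held when each of the 8 libraries was left out (0.63 to 0.82). In mouse it ranged from 13.7 to 16.5 CPM in BALB/c sham (median 14.9) and was 16.0, 17.1, 19.8 and 17.01 CPM in BALB/c SNI. It was 18.8, 18.2, 17.3, 18.7 and 16.1 CPM in B10.D2 sham and 20.1, 15.9, 20.97, 16.6 and 20.4 CPM in B10.D2 SNI. The fitted log2 difference was 0.21 ± 0.0819 (unadjusted p = 0.0176, adjusted p = 0.115) in BALB/c and 0.06 ± 0.0807 (adjusted p = 0.766) in B10.D2.

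Sham ganglia of the strains differed in Tnfrsf1a, by 0.25 ± 0.0772 on the log2 scale (1.19-fold higher in B10.D2, adjusted p = 0.0253), with overlapping groups. It was the 1 member of 9 called between the strains in sham, where 21.6% of all features were called. The call was lost without BALB/c sham 51 or B10.D2 sham 58, 60 or 77, with adjusted p from 0.0572 to 0.0688. Macrophage markers were higher in B10.D2 sham too, with 6 of 13 called and a median log2 fold change of 0.41, and their part in the Tnfrsf1a difference was not tested. After SNI the strain difference in Tnfrsf1a was 0.10 ± 0.0851 (adjusted p = 0.472).

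Il1rn (chr2:24336853-24351494, plus strand), the interleukin-1 receptor antagonist, was called in rat. Rat libraries held 2.82, 0.915, 1.28 and 3.45 CPM in sham and 3.73, 5.17, 16.6 and 4.06 CPM in SNT, and SNT 3 was far above the others. The log2 ratio of the groups was 1.82 ± 0.573 (3.52-fold, adjusted p = 0.0409). Without SNT 3 it was 1.06 (adjusted p = 0.106), and without sham 4 and SNT 1 it was 2.41 (adjusted p = 0.00885). The call was also lost without sham 1, 2 or 3 or SNT 2 or 4, and over these 6 libraries the adjusted p ranged from 0.0504 to 0.109.

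In mouse, Il1rn ranged from 0.276 to 1.18 CPM in BALB/c sham (median 0.470) and was 0.940, 1.58, 1.56 and 0.794 CPM in BALB/c SNI. It was 0.877, 0.332, 0.299, 0.373 and 0.338 CPM in B10.D2 sham and 1.76, 0.408, 0.461, 0.428 and 0.924 CPM in B10.D2 SNI. The groups overlapped in both strains, and B10.D2 sham 58 and SNI 69 stood above the others of their groups. The log2 fold change was 1.05 ± 0.432 (adjusted p = 0.143) in BALB/c and 0.73 ± 0.472 (adjusted p = 0.478) in B10.D2. Without the 3 mouse libraries that lay between the groups, the BALB/c value was 1.68 (adjusted p = 0.0201). The CPM of Il1rn was 0.554 of that of Il1b in BALB/c sham by the median and 0.655 in BALB/c SNI, and 0.458 and 0.282 in B10.D2. In rat it ran from 0.319 to 1.06 in sham and from 0.881 to 4.04 in SNT. These ratios were not tested.

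**Figure D3:**
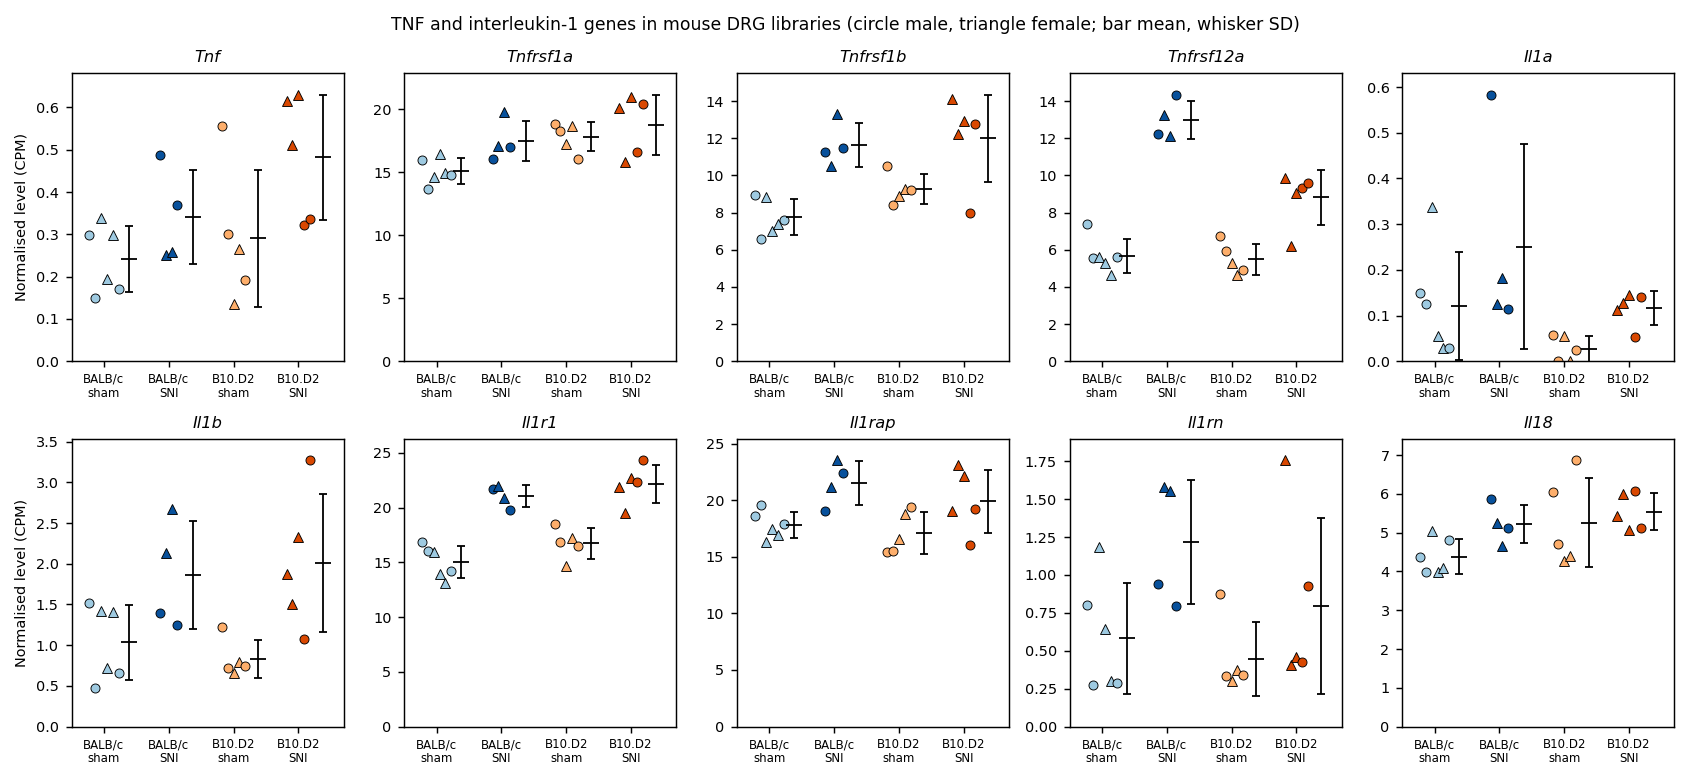
Level of each of the 10 genes in the 20 mouse libraries, in CPM, by strain and surgery (circles male, triangles female), with the mean and SD of each group. The BALB/c SNI libraries of Tnfrsf12a sit between 12.1 and 14.4 CPM, above the B10.D2 SNI libraries at 6.23 to 9.88 CPM and the sham libraries of both strains.

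**Figure D4:**
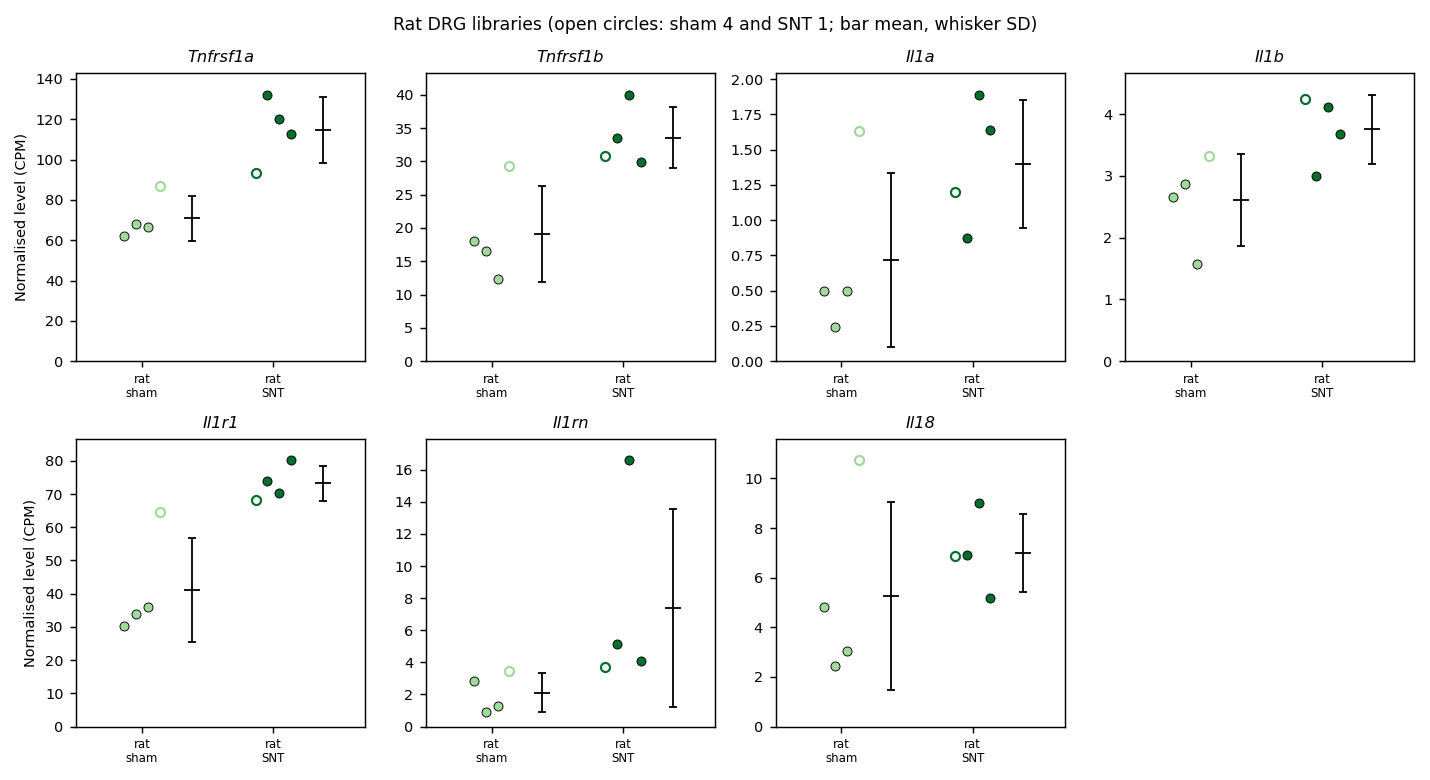
Level of the 7 genes that had counts in rat, in CPM, in 4 sham and 4 SNT libraries, with sham 4 and SNT 1 as open circles and the mean and SD of each group. Sham 4 is the highest sham library for the 7 genes, and SNT 3 stands apart for Il1rn at 16.6 CPM.

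Between the sexes, no member was called in mouse (0 of 9, where 0.243% of all features were called), by edgeR or by DESeq2. Only Tnfrsf12a had an unadjusted p under 0.05, 0.0349, with a log2 fold change of −0.19 ± 0.0836 in females against males (adjusted p = 0.374). Fitted in males alone, BALB/c Tnfrsf12a rose by 1.10 (adjusted p = 0.00684) and in females alone by 1.28 (adjusted p = 0.00192). In B10.D2 the sexes alone gave 0.69 (adjusted p = 0.123) and 0.75 (adjusted p = 0.0908) for Tnfrsf12a, and 0.43 (adjusted p = 0.114) and 0.42 (adjusted p = 0.126) for Il1r1. No member was called in the interaction of strain and injury (0 of 9, by edgeR and by DESeq2), where 0.0243% of all features were called and 1 member, Tnfrsf12a, had an unadjusted p under 0.05.

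The level of markers of other cells moved with some of these results. Macrophage markers, cells that express several of the receptors, summed to 103 to 249 CPM in BALB/c sham (median 148) and 186 to 283 CPM in BALB/c SNI (median 209), and 4 of 13 were called higher, among them Cx3cr1 (0.97 ± 0.202, adjusted p = 0.00308). In B10.D2 they summed to 203 to 236 CPM in sham and 206 to 345 CPM in SNI, with 0 of 13 called by edgeR and 8 of 13 at an unadjusted p under 0.05 (median log2 fold change 0.42). In rat they summed to 135 to 522 CPM in sham and 425 to 641 CPM in SNT, 1 of 7 tested was called, and Aif1, Csf1r, Cd68, Mrc1, Ptprc and Cd14 were listed at 0. Over all features, 4.82% were called higher in BALB/c, 2.1% in B10.D2 and 12.3% in rat. The rat share of this list was near that of all features. The part of macrophage number in the receptor changes was not tested.

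Neutrophil markers summed to 44.4 to 313 CPM in BALB/c sham and 87.6 to 500 CPM in BALB/c SNI, against 23.6 to 80.9 and 26.8 to 52.2 CPM in B10.D2. All 10 of the list were called lower in B10.D2 than in BALB/c after SNI (median log2 fold change −2.39), where Tnfrsf12a was lower too. In sham, where Tnfrsf12a was not called, 4 of 10 were called lower (median −1.41) and 0 of 10 had a positive log2 fold change. By edgeR, 0 of 10 were called for injury in either strain (1 of 10 in BALB/c and 0 of 10 in B10.D2 at an unadjusted p under 0.05). Lymphocyte markers were called higher for 2 of 5 tested in rat and 0 of 10 in each mouse strain (4 in BALB/c and 0 in B10.D2 at an unadjusted p under 0.05), and summed to 35.3 to 87.8 CPM in rat sham and 105 to 155 CPM in rat SNT. Sensory neuron markers summed to 5834 to 8280 CPM in rat sham and 3797 to 7370 CPM in rat SNT. In BALB/c they summed to 8734 to 9878 CPM in sham and 8033 to 9123 CPM in SNI. In B10.D2 the ranges were 8827 to 9990 and 7865 to 9523 CPM. They were called lower for 2 of 10 in each mouse strain (4 in BALB/c and 5 in B10.D2 at an unadjusted p under 0.05) and 2 of 5 in rat. Over all features, 9.69%, 4.58% and 27.4% were called in BALB/c, B10.D2 and rat. Satellite glia markers were called higher for 2 of 8 in BALB/c, 0 of 8 in B10.D2 (2 at an unadjusted p under 0.05) and 2 of 3 in rat, Schwann cell markers for 0 of 8, 0 of 8 and 1 of 3 (0 of 8 in either strain at an unadjusted p under 0.05), and endothelial and fibroblast markers for 2 of 8, 1 of 8 and 1 of 2. Over all features, 4.82% were called higher after injury in BALB/c, 2.1% in B10.D2 and 12.3% in rat. Between the strains, 21.6% were called in sham and 20.8% after SNI. The part of these cells in the changes of the 10 genes was not tested.

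Beyond the 10 genes, 135 other genes of the pathway were placed in 5 lists. These lists too were chosen with earlier results of these data known. In BALB/c, 20 of 122 tested were called, 15 higher and 5 lower (16.4%, beside 9.69% of all features). In B10.D2, 10 of 122 were called, 9 higher and 1 lower (8.20%, beside 4.58%), and in rat 32 of 75, 29 higher and 3 lower (42.7%, beside 27.4%). Without the 3 mouse libraries between the groups BALB/c had 38 calls and B10.D2 had 14, and without rat sham 4 and SNT 1 the rat count was 48 of 74.

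Among TNF superfamily ligands and receptors, 4 of 26 tested were called in BALB/c (3 higher, 1 lower), 2 of 26 in B10.D2 (1 higher, 1 lower) and 3 of 14 in rat (3 higher). Over all features, 9.69%, 4.58% and 27.4% were called, so the rat share of this list was below that of all features. Eda2r, a receptor of ectodysplasin, rose by 0.57 ± 0.144 in BALB/c (adjusted p = 0.0145) and by 0.62 ± 0.145 in B10.D2 (adjusted p = 0.0146) on the log2 scale. Relt, a receptor of the same superfamily, fell by 0.58 (SE 0.181, adjusted p = 0.0452) and by 0.69 (SE 0.181, adjusted p = 0.0315). Adam17, the protease that releases TNF and its receptors from the membrane, rose from 41.8 ± 1.63 to 51.2 ± 5.99 CPM in BALB/c (adjusted p = 0.00593). In rat, Tnfrsf14, the receptor of LIGHT, rose from 3.08 ± 1.04 to 7.97 ± 2.33 CPM (n = 4 each, adjusted p = 0.0132), Ltbr, the lymphotoxin beta receptor, from 63.5 ± 8.91 to 96.9 ± 11.2 CPM (adjusted p = 0.0130), and Tnfrsf25 from 5.40 ± 0.423 to 8.45 ± 1.88 CPM (adjusted p = 0.0342).

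Among genes of the interleukin-1 family, its receptors and its processing, 3 of 19 tested were called in BALB/c and 2 of 19 in B10.D2, all higher, and 8 of 15 in rat (7 higher, 1 lower). Of all features, 9.69%, 4.58% and 27.4% were called in these 3 comparisons. Il1rl2, the receptor of interleukin-36, rose in BALB/c (0.61 ± 0.154, adjusted p = 0.0133) and in B10.D2 (0.66 ± 0.159, adjusted p = 0.0169). Pycard, the adaptor of inflammasomes, rose by 0.65 ± 0.185 (adjusted p = 0.0287) and Casp4, an inflammatory caspase, by 0.60 ± 0.120 (adjusted p = 0.00222) in BALB/c. Il18bp, a secreted inhibitor of interleukin-18, rose from 6.39 ± 0.553 to 7.78 ± 0.429 CPM in B10.D2 (adjusted p = 0.0252). In rat, the decoy receptor Il1r2 rose by 1.39 ± 0.378 (adjusted p = 0.0255), the interleukin-33 receptor Il1rl1 by 1.32 ± 0.204 (adjusted p = 0.0106) and the interleukin-18 receptor Il18r1 by 1.19 ± 0.370 (adjusted p = 0.0385). Il1rapl1, a synaptic protein related to Il1rap, fell from 9.20 ± 1.86 to 5.51 ± 1.56 CPM (adjusted p = 0.0386).

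Among the adaptors and kinases that act below the receptors, 7 of 39 tested were called in BALB/c (3 higher, 4 lower), 1 of 39 in B10.D2 and 10 of 22 in rat (8 higher, 2 lower). Over all features, 9.69% were called in BALB/c, 4.58% in B10.D2 and 27.4% in rat, so the B10.D2 share of this list was below that of all features. Irak3, a kinase-like brake on interleukin-1 receptor signalling, rose in BALB/c (0.37 ± 0.110, adjusted p = 0.0379) and in rat (1.01 ± 0.162, adjusted p = 0.0106). In BALB/c, Cflar, an inhibitor of caspase-8, rose from 93.7 ± 3.18 to 108 ± 8.41 CPM (adjusted p = 0.00981) and the p38 kinase Mapk14 from 75.5 ± 3.11 to 82.8 ± 1.53 CPM (adjusted p = 0.0300). The neuronal JNK kinase Mapk10, Tab3 and Map2k4 fell by 0.31, 0.30 and 0.21 on the log2 scale (adjusted p = 0.0381, 0.00126 and 0.0114). Tab2, which links the TAK1 kinase to ubiquitin chains, was the gene called in B10.D2, with 0.15 ± 0.0416 (adjusted p = 0.0388). In rat, the death domain adaptor Fadd rose by 0.85 ± 0.170 (adjusted p = 0.0123) and Traf1 by 0.73 ± 0.168 (adjusted p = 0.0151), while Map3k5 fell by 0.64 (adjusted p = 0.0237) and Birc2 by 0.34 (adjusted p = 0.0297).

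Among NF-kB subunits and inhibitors, 2 of 17 tested were called in each mouse strain and 7 of 12 in rat, all higher. Over all features, 9.69% were called in BALB/c, 4.58% in B10.D2 and 27.4% in rat, so the BALB/c share of this list was near that of all features. Rela, the p65 subunit, was called in the 3 comparisons, with 0.32 ± 0.0571 in BALB/c (adjusted p = 0.000803), 0.23 ± 0.0568 in B10.D2 (adjusted p = 0.0233) and 0.93 ± 0.140 in rat (adjusted p = 0.0104). Tnip2, an inhibitor of NF-kB activation, rose in BALB/c (0.40 ± 0.0737, adjusted p = 0.00116) and in B10.D2 (0.33 ± 0.0735, adjusted p = 0.00967). Bcl3 (0.88 ± 0.249, adjusted p = 0.0288) and Nfkb2 (0.85 ± 0.247, adjusted p = 0.0317) rose in rat.

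Among 21 target genes tested in mouse, BALB/c had 4 calls and B10.D2 had 3, beside 4 of 12 in rat, all higher. The shares of all features called were 9.69%, 4.58% and 27.4%, so the rat share of this list was near that of all features. Csf1, the growth factor of macrophages, was called in the 3 comparisons, from 16.3 ± 1.60 to 29.8 ± 1.02 CPM in BALB/c (adjusted p = 2.24e-07), from 17.4 ± 0.755 to 25.9 ± 3.45 CPM in B10.D2 (adjusted p = 7.91e-05) and from 38.1 ± 17.2 to 89.8 ± 13.3 CPM in rat (adjusted p = 0.0131). Csf1 was also in the list of nerve injury markers, so its rise is not particular to the target genes. Tnfaip6, a hyaluronan-binding protein, rose from 1.27 ± 0.182 to 2.53 ± 0.495 CPM in BALB/c (adjusted p = 0.000471) and Steap4 by 0.45 ± 0.107 (adjusted p = 0.00936). In B10.D2 the chemokine Cxcl10 rose from 1.18 ± 0.494 to 4.11 ± 2.86 CPM (adjusted p = 0.00443), and Gch1, of tetrahydrobiopterin synthesis, from 4.75 ± 0.222 to 6.03 ± 0.310 CPM (adjusted p = 0.0394). In rat, Tnfaip2 rose by 0.96 ± 0.235 (adjusted p = 0.0183), and the SNT level of the protease Mmp9, 43.8 ± 80.2 CPM, had an SD larger than its mean (adjusted p = 0.0325).

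**Figure D5:**
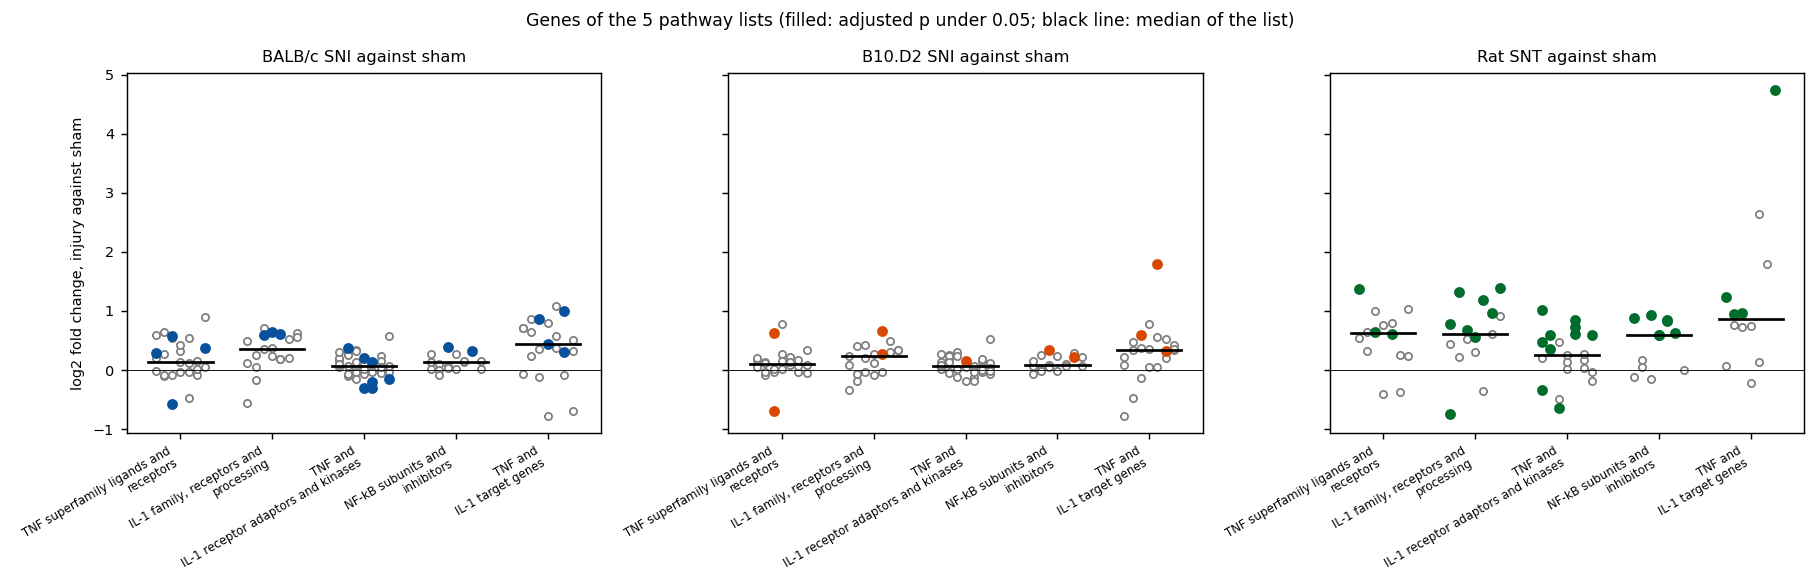
log2 fold change of injury against sham for each tested gene of the 5 pathway lists in BALB/c, B10.D2 and rat, filled where the adjusted p was under 0.05, with the median of each list as a line. The medians lie above 0 in the 3 comparisons, from 0.0603 to 0.449 in BALB/c, from 0.0603 to 0.346 in B10.D2 and from 0.259 to 0.859 in rat.

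The features most like Tnfrsf12a across the 20 mouse libraries, by Pearson's r of log2 CPM among 18593 features, were Fgf3 (r = 0.972), Tes (0.962), Gadd45a (0.959), Vim (0.959) and Rin1 (0.953). Fgf3, a fibroblast growth factor, differed between SNI and sham by 4.12 (BALB/c) and 3.92 (B10.D2) on the log2 scale, and Gadd45a, a stress-induced gene, by 1.09 and 0.58. These 2 were picked for mention after their values were seen. For Il1r1 they were LncRNA237 (0.935), Bach1 (0.903), Itgb1 (0.899), Sectm1b (0.898) and Glis3 (0.891). These libraries span both strains, both kinds of surgery and a range of depths, and such group differences alone can raise r. The correlations therefore describe a likeness of pattern and carry no test.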

How the data were processed

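RNA from mouse and rat dorsal root ganglia was sequenced as strand-specific paired-end libraries. The authors aligned the reads to mm10 or rn6 with STAR and counted them per gene with HTSeq, and the deposited tables hold raw counts for annotated genes and for LncRNAs that the authors assembled. From the deposited tables of the authors' own DESeq2 comparisons only the gene symbols were used, and their fold changes and p-values were not. The labels name 2 mouse samples that have no column in the tables used here.

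Counts were tested with edgeR 4.0.16 in R 4.3.3 by its quasi-likelihood F test, with TMM scaling, filterByExpr (minimum count 10) and Benjamini-Hochberg adjustment over all features of a species, called below 0.05. The 20 mouse libraries shared a model of sex, strain, injury and the interaction of strain and injury, and the 8 rat libraries a model of injury. The SE was taken from the F statistic (the absolute log2 fold change over root F). Il1a, below the filter in mouse, was compared with an exact two-sided permutation test over libraries. Mouse libraries are single animals and rat libraries pools of 3, so p-values measure the spread between these. The floor of 3 counts covers counting error only.

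Positions and lengths came from GENCODE M21, and promoters from RefSeq GRCm38.p6. The 10 genes and all lists were chosen with earlier results of these data known. Pathway genes named were the called genes of each list with the largest changes, up to 3 higher and 3 lower per list and comparison. Likeness was taken for the member with the lowest adjusted p in BALB/c and, as the same member was lowest in B10.D2, for the next lowest there, with the 5 features of highest r. Tables and figures used Python 3.11.15 with pandas 2.3.3. The tests were checked on simulated data. Alternatives were DESeq2 1.42.0, other size factors, other filters, annotated genes alone, single strains or sexes, no sex term and each library left out. In rat, a block on the first number of the library title was also fitted. Leaving out the 3 mouse libraries between the groups, and the rat pathway counts without sham 4 and SNT 1, were chosen after seeing the data.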

Additional observations from a re-analysis of the deposited data

Results flagged for a closer look

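Of 54 groups of 4 to 6 libraries checked with Dixon's 95% limit, 7 held a library that stood far from the others of its group, where chance gives about 1 in 20. Tnfrsf12a was high in BALB/c sham 50 at 7.39 CPM, with the next library at 5.62, and low in B10.D2 SNI 76 at 6.23 CPM, with the next at 9.07. Il1a was high in BALB/c SNI 49 at 0.584 CPM, with the next at 0.181. B10.D2 sham 58 was high for Il1b at 1.23 CPM, with the next at 0.798, and for Il1rn at 0.877 CPM, with the next at 0.373. Il1r1 was high in rat sham 4 at 64.5 CPM, with the next at 35.9, and Il1rn was high in rat SNT 3 at 16.6 CPM, with the next at 5.17.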

How the results depend on the processing

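Counts of calls moved with the number of libraries and with the tool. DESeq2 called 10 features for the interaction and 240 for sex, against 6 and 60, no filter on low counts gave 222 for sex, and at least 10 counts in every library gave 3 for the interaction. Males alone gave 415 features and 1 member in BALB/c and 95 features and 0 members in B10.D2, and females alone gave 902 features in BALB/c and 187 features and 0 members in B10.D2, from fewer libraries. Leaving out each library in turn gave 665 to 1214 features in B10.D2, 3 to 6 for the interaction, 35 to 159 for sex, 0 to 2 members between strains in sham, and 1483 to 5041 features and 1 to 6 members in rat. Without rat sham 4 and SNT 1, 6100 rat features were called. Without the 3 mouse libraries between the groups, 5 members and 38 pathway genes were called in BALB/c. Both settings took out libraries for lying between the groups, which tends to raise such counts.

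The first number in each rat title is shared by a sham and an SNT library, and the labels do not say what it stands for. With that number as a replicate block, 2558 features and 2 members were called, Tnfrsf1a (0.70, adjusted p = 0.0273) and Il1r1 (0.90, adjusted p = 0.0273). Tnfrsf1b (0.88, adjusted p = 0.0594) and Il1rn (1.65, adjusted p = 0.107) lost their calls. Libraries that share the number did not deviate together (correlations 0.052, −0.272, −0.102 and −0.084), so the number was not taken to pair them.

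No reversed value was called. Over leaving out each library, the sign turned for the strain difference in sham of Tnfrsf12a (−0.131 to 0.00545) and Tnf (−0.111 to 0.468), for the strain difference after SNI of Tnfrsf1b (−0.042 to 0.162) and Il1b (−0.233 to 0.302), for the interaction of Il1rn (−0.746 to 0.117) and Il1rap (−0.12 to 0.00613), and for the sex difference of Tnf (−0.0813 to 0.167). Injury turned in B10.D2 males for Tnf (−0.0713) and Il18 (−0.0717) and in BALB/c females for Tnf (−0.137). The causes of the reversals were not tested. Depth limits Tnf and Il1a most, with at most 26 and 18 counts a mouse library.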
